A study of Homo sapiens with 6 samples.

Results

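The 8 genes described here are tumour suppressors that are mutated or deleted in clear cell renal cell carcinoma or in related kidney tumours: PBRM1, SETD2, BAP1, ARID1A, SMARCA4, SMARCB1, NF2 and STAG2. They were taken by symbol from a count table of 60649 genes, in which each symbol has 1 row. All 8 passed the filter on low counts, among 16039 genes tested. RNA was sequenced from the human line 786-O, grown from a clear cell renal carcinoma and without working VHL, the protein that marks hypoxia-inducible factors for destruction. One set of cells carried the hairpin shRNA1 and another shRNA2, both against the long non-coding RNA LINC02068, and the comparison cells carried the control hairpin shControl, whose genotype the labels give as WT. Each of the 3 groups has 2 libraries, all groups are the same line, and no other treatment is given. The means of hairpin delivery and any selection of cells were not given in the sources used here. Nothing in the labels makes the replicates separate cultures, and the p-values may therefore reflect technical spread alone. In bulk RNA, fewer cells that carry a transcript and less of it per cell cannot be told apart.

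PBRM1, SETD2 and BAP1 lie with VHL on the short arm of chromosome 3, and loss of that arm followed by inactivation of the remaining copies is the best known route to clear cell renal carcinoma. PBRM1, ARID1A, SMARCA4 and SMARCB1 are subunits of SWI/SNF complexes, which use ATP to slide and evict nucleosomes. SETD2 trimethylates lysine 36 of histone H3 behind elongating RNA polymerase, BAP1 removes ubiquitin from histone H2A, STAG2 is a subunit of the cohesin ring that holds DNA loops and sister chromatids, and NF2 encodes merlin, a membrane-linked scaffold that switches on the Hippo kinases and so keeps YAP and TAZ out of the nucleus.

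LINC02068 itself had 9 and 2 counts in the shRNA1 libraries and 17 and 10 in the shRNA2 libraries, against 20 and 32 in the shControl libraries. In edgeR's quasi-likelihood test its log2 fold change for the mean of both hairpins against shControl was -1.46 ± 0.59 (SE, n = 4 and 2 libraries, adjusted p = 0.0447), and it was not called with shRNA1 alone (adjusted p = 0.0690) or shRNA2 alone (adjusted p = 0.148). Library totals ran from 15376448 to 37311846 counts, and 1 count-per-million (CPM) stood for 14.9 to 36 counts after TMM scaling. Replicate libraries differed by more than sampling noise in every group, with a chi-square of 4.57 to 6.64 per degree of freedom. The first principal component, with 55.3% of the variance, set the knockdown libraries apart from the shControl libraries, and shRNA1 replicate 1 stood apart from the other 5 on the second (15.1%). Kidney markers were present: PAX8 had mean levels of 322 CPM in shRNA1 and 334 CPM in shRNA2, against 307 CPM in shControl, and PAX2 35.9 CPM in shRNA1 and 35.1 CPM in shRNA2, against 24.0 CPM in shControl. The 9 renal markers summed to 9009 to 9137 CPM in the knockdown libraries, against 7174 and 7177 CPM in shControl, and most of that sum was VIM and KRT8, which are not specific to kidney. CA9 did not pass the test (log2 fold change 0.14, edgeR adjusted p = 0.352). NDUFA4L2, a hypoxia target of that list, was at 0.0523 to 0.820 CPM over the libraries. Of 5 leukocyte markers 4 had no count in any library (CD68 did), both hepatocyte markers had none, 4 endothelial markers summed to 0.269 to 1.36 CPM, and 4 fibroblast markers summed to 7.86 to 9.87 CPM.

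Both hairpins moved 5 of the 8 genes in the same direction. NF2 and SMARCA4 rose most, BAP1 and ARID1A rose slightly, and STAG2 fell. SETD2, PBRM1 and SMARCB1 did not pass the test. A gene was called when its edgeR adjusted p was under 0.05, over all tested genes. With 5 of 8 genes called for the mean of both hairpins, the group was close to the background of these libraries, where 57.5% of all tested genes were called. In the higher direction 4 of the 8 were called, against a background of 28.6%, and 1 of 8 was lower, against 28.9%. The median log2 fold change was 0.157 over the 8 genes and -0.0255 over all tested genes. Without TMM factors, on total counts, the median of all genes was -0.181, so log2 values shifted down together, and of all called genes 36% were higher, in place of 49.7%. Of the 8 genes, 5 were then called, 3 higher and 2 lower, beside 9426 of all 16039 tested genes (3398 higher and 6028 lower).

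**Figure D1:**
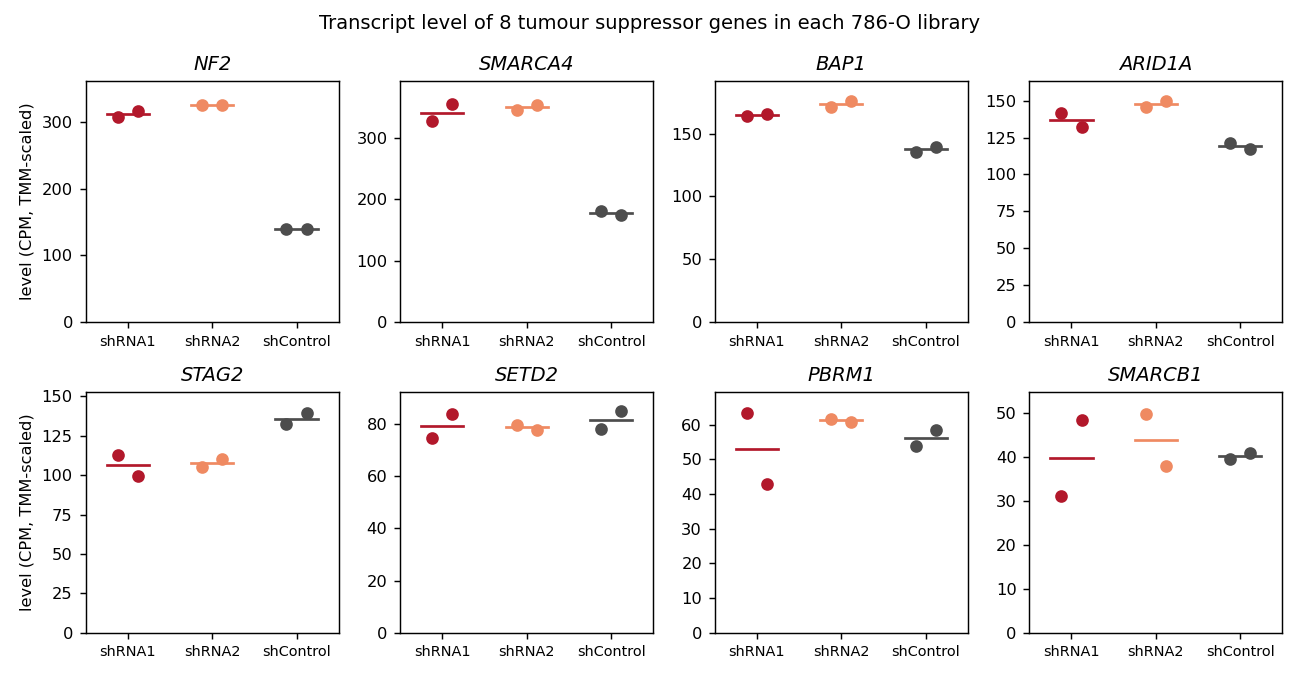
Level of each gene (vertical axes, CPM over TMM-scaled library sizes, each from 0) in the shRNA1, shRNA2 and shControl libraries. Points are libraries and bars are group means (n = 2). NF2 sits at 307 to 326 CPM in the knockdown libraries and at 139.7 and 140.0 CPM in shControl, and the libraries of one group are far apart for PBRM1 in shRNA1 and for SMARCB1 in both hairpin groups.

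NF2 showed the largest change of the 8. It had 307 and 317 CPM in shRNA1 and 325 and 326 CPM in shRNA2, against 140.0 and 139.7 CPM in shControl. Every knockdown library was above both control libraries, by a margin far wider than the gap within any group. The log2 fold change was 1.16 ± 0.04 with shRNA1, 1.22 ± 0.04 with shRNA2 and 1.19 ± 0.03 for their mean (SE, edgeR adjusted p = 2.2e-13), which is a 2.28-fold difference. Of all tested genes, 11.2% changed by more than NF2 in absolute terms. That share was 17.6% for SMARCA4, 59.4% for STAG2, 64.7% for BAP1 and 69.9% for ARID1A. NF2 was also among the steadiest genes between replicates, as only 1.34% of genes had a lower quasi-likelihood dispersion. Its change stayed between 1.03 and 1.22 over all alternative settings and all sets of 5 libraries, with the lowest value under total counts. NF2 (ENSG00000186575.19) is on chromosome 22, plus strand, at 29603556 to 29698598 (GRCh38, GENCODE 29).

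SMARCA4, the ATPase motor also called BRG1, followed NF2. Its libraries held 327 and 354 CPM in shRNA1 and 345 and 354 CPM in shRNA2, against 180.5 and 174 CPM in shControl. The knockdown libraries overlapped each other and none came near the control libraries. The log2 fold change was 0.94 ± 0.04 with shRNA1, 0.98 ± 0.04 with shRNA2 and 0.96 ± 0.04 for their mean (SE, edgeR adjusted p = 9.3e-12), or 1.95-fold. It ranged from 0.80 under total counts to 1.01 without shRNA1 replicate 1. SMARCA4 (ENSG00000127616.20) is on chromosome 19, plus strand, at 10960825 to 11079426.

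The alternative SWI/SNF motor, SMARCA2, also rose, by 0.32 ± 0.05 (edgeR adjusted p = 6.3e-05), to 112 CPM in shRNA1 and 120.0 CPM in shRNA2, against 92.6 CPM in shControl. Per kilobase of exon, SMARCA4 stood at 3.34 and 3.84 times SMARCA2 in the shRNA1 libraries and 3.51 and 3.36 times in the shRNA2 libraries, against 2.40 and 2.13 times in the shControl libraries. The ratio was higher in each knockdown library than in either control library. It is free of library scaling, since both genes are read in the same library. How reads shared between these related genes were counted is not given in the sources used here.

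ARID1A, the large DNA-binding subunit that defines the BAF form of the complex, rose far less. It had 141 and 132 CPM in shRNA1 and 146 and 149.6 CPM in shRNA2, against 121 and 117 CPM in shControl. All knockdown libraries lay above the controls, with shRNA1 replicate 2 closest to them. The log2 fold change was 0.20 ± 0.05 with shRNA1, 0.31 ± 0.05 with shRNA2 and 0.25 ± 0.04 for their mean (SE, edgeR adjusted p = 1.0e-04). Under total counts the mean was 0.10 and was no longer called (adjusted p = 0.0633), and against a fold of 1.2 the adjusted p was 0.505. ARID1A (ENSG00000117713.20) is on chromosome 1, plus strand, at 26693236 to 26782110. Its paralog ARID1B had 116 CPM in shRNA1 and 119 CPM in shRNA2, against 119 CPM in shControl, with a log2 fold change of -0.02 ± 0.05 (adjusted p = 0.686). ARID2, which takes the place of ARID1 proteins in the PBAF form, had 29.7 CPM in shRNA1 and 28.3 CPM in shRNA2, against 22.8 CPM in shControl. That was a log2 fold change of 0.34 ± 0.09 (adjusted p = 0.0036), but the call was lost under total counts (0.19, adjusted p = 0.0795) and in the least favourable set of 5 libraries (adjusted p = 0.074).

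PBRM1, the bromodomain subunit of PBAF and the chromatin gene most often mutated in clear cell renal carcinoma, did not pass the test, and its 2 shRNA1 libraries went opposite ways. It had 63.4 and 42.9 CPM in shRNA1 and 61.8 and 60.7 CPM in shRNA2, against 54.0 and 58.5 CPM in shControl. The shRNA1 libraries were the highest and the lowest of the 6, and the shRNA2 libraries were both above the controls. The mean log2 fold change was 0.02 ± 0.17 (edgeR adjusted p = 0.948), with a 95% interval from -0.44 to 0.48. Replicate 1 over replicate 2 in shRNA1 was 1.48, with a counting interval of 1.35 to 1.62, and 98.0% of tested genes had a lower quasi-likelihood dispersion. By edgeR's coefficient of variation between replicates, 10.6% for PBRM1, 52.8% of genes were lower. Without shRNA1 replicate 1 the shRNA1 contrast was -0.37 (adjusted p = 0.0027) and the mean of both hairpins -0.12 (adjusted p = 0.137). Without shRNA1 replicate 2 the shRNA1 contrast was 0.19 (adjusted p = 0.0929) and the mean 0.16 (adjusted p = 0.0475). In each contrast the sign followed which shRNA1 library was kept, and 1 of these 2 values was called. Whether the position of shRNA1 replicate 1 on the second principal component plays a part was not tested.

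SMARCB1, the core subunit lost in rhabdoid tumours, was the lowest and least repeatable of the 8. It had 31.1 and 48.5 CPM in shRNA1 and 49.9 and 37.9 CPM in shRNA2, against 39.5 and 40.9 CPM in shControl. In each hairpin group 1 library was above and 1 below both controls. The mean log2 fold change was 0.06 ± 0.24 (edgeR adjusted p = 0.856) and the 95% interval ran from -0.64 to 0.76, the widest of the 8. Replicate 1 over replicate 2 was 0.642 in shRNA1 (counting interval 0.574 to 0.717) and 1.32 in shRNA2 (1.21 to 1.43), and neither interval holds 1. Exons of DERL3, on the opposite strand, cover 17.7% of the SMARCB1 exons, and whether counting used strand is not given in the sources used here. DERL3 had 1 to 4 counts per library, against 463 to 1795 for SMARCB1. SMARCB1 (ENSG00000099956.20) is on chromosome 22, plus strand, at 23786931 to 23838008.

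BAP1, the histone H2A deubiquitinase, rose slightly and evenly. It had 164 and 165 CPM in shRNA1 and 171 and 176 CPM in shRNA2, against 136 and 139 CPM in shControl. The knockdown and control libraries did not overlap. The log2 fold change was 0.26 ± 0.04 with shRNA1, 0.34 ± 0.04 with shRNA2 and 0.30 ± 0.04 for their mean (SE, edgeR adjusted p = 4.9e-06), which is 1.23-fold. The change was 0.14 under total counts (adjusted p = 0.0029) and did not pass a test against a fold of 1.2 (adjusted p = 0.130). BAP1 (ENSG00000163930.10) is on chromosome 3, minus strand, at 52401013 to 52410350, 135 kb from PBRM1 (ENSG00000163939.18, minus strand) at 52545352 to 52685917.

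SETD2, the only other histone-modifying enzyme of the 8, did not pass the test. It had 74.5 and 83.8 CPM in shRNA1 and 79.6 and 77.6 CPM in shRNA2, against 78.1 and 84.9 CPM in shControl. The 3 groups overlapped. The mean log2 fold change was -0.05 ± 0.06 (edgeR adjusted p = 0.527) and its 95% interval ran from -0.17 to 0.08, a narrow range beside those of PBRM1 and SMARCB1. Under total counts SETD2 was called lower, at -0.20 (adjusted p = 0.0073), close to the shift of the median gene under that scaling. SETD2 (ENSG00000181555.21) is on the same strand of that chromosome, at 47016429 to 47163967.

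STAG2 was the 1 member that fell. It had 113 and 99.3 CPM in shRNA1 and 105 and 110.4 CPM in shRNA2, against 132 and 139.6 CPM in shControl. No knockdown library reached the lower control library. The log2 fold change was -0.36 ± 0.06 with shRNA1, -0.34 ± 0.06 with shRNA2 and -0.35 ± 0.05 for their mean (SE, edgeR adjusted p = 3.7e-05), or 0.785-fold. STAG2 transcripts are long and poor in GC (36.6%), and genes alike in exon length and GC content had a fitted log2 change of -0.16. With that trend removed STAG2 changed by -0.19 (adjusted p = 0.0037), and under total counts by -0.50. The fitted change was 0.08 for ARID1A, 0.07 for BAP1, 0.05 for SMARCA4 and 0.08 for NF2, the direction in which each of these rose. STAG2 (ENSG00000101972.19) spans 123960212 to 124422664 on the plus strand of chromosome X.

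STAG1, the paralog that takes the same place in cohesin, had 51.4 CPM in shRNA1 and 52.9 CPM in shRNA2, against 46.2 CPM in shControl. Its log2 fold change of 0.17 ± 0.07 was at the edge of the test (edgeR adjusted p = 0.0476) and did not hold under total counts (0.02, adjusted p = 0.858) or in every set of 5 libraries (highest adjusted p = 0.226). Per kilobase of exon, STAG2 stood at 2.05 and 1.90 times STAG1 in the shRNA1 libraries and 2.05 and 1.86 times in the shRNA2 libraries, against 2.77 and 2.86 times in the shControl libraries. The ratio was lower in every knockdown library, and it too does not depend on library scaling.

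**Figure D2:**
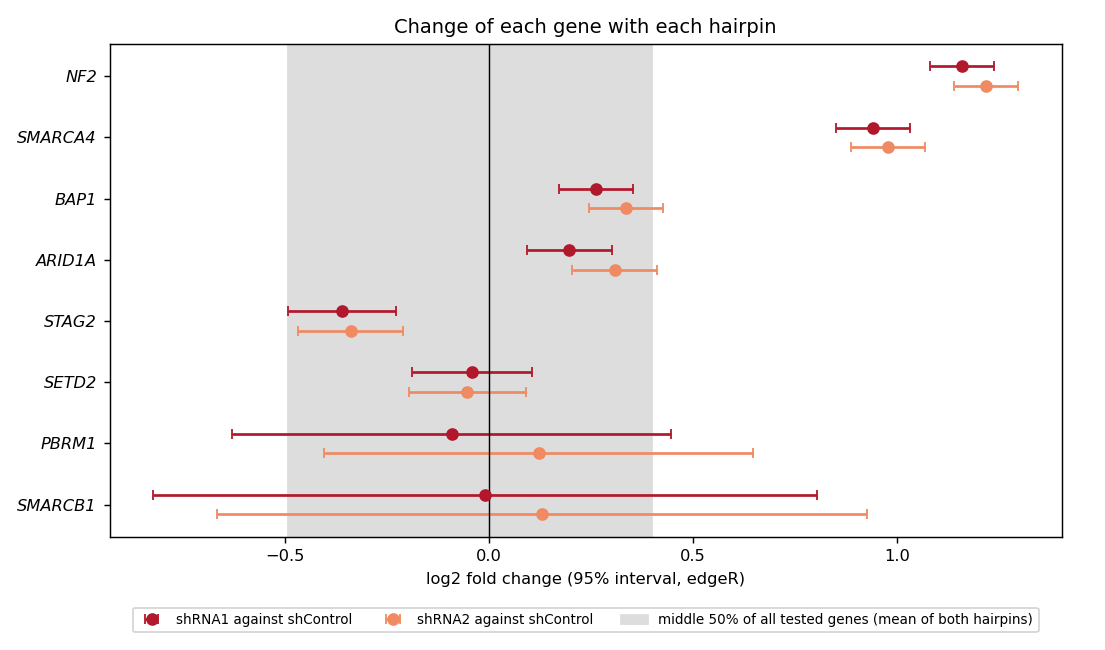
Log2 fold change of each gene with shRNA1 and with shRNA2 against shControl (horizontal axis, TMM-scaled). Points are edgeR estimates, bars are 95% intervals, and the grey band holds the middle 50% of all tested genes, from -0.49 to 0.40. NF2 and SMARCA4 lie to the right of the band with both hairpins, BAP1, ARID1A and STAG2 lie off 0 but mainly within it, and the intervals of SETD2, PBRM1 and SMARCB1 cross 0.

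Both hairpin contrasts use the same 2 shControl libraries, so their likeness is not independent. With shRNA1 alone 5 of 8 genes were called (4 higher), against 52.4% of all tested genes (26.8% higher and 25.6% lower), and with shRNA2 alone 5 of 8 (4 higher), against 52.8% (26.7% higher and 26.1% lower). Called with both hairpins in 1 direction were 5 of 8, against 46.8% of all tested genes. The knockdown libraries did not overlap the shControl libraries for 5 of 8 genes, against 67.0% of all tested genes. Only NF2 exceeded an absolute log2 change of 1 for the mean of both hairpins, where 16.2% of all genes did, and 2 of 8 (NF2 and SMARCA4) exceeded 0.5, where 44.7% did. Between the hairpins, shRNA1 against shRNA2, none of the 8 was called by edgeR or by DESeq2, and 0.0312% of all tested genes were called by edgeR (0.00623% higher and 0.0249% lower). ARID1A was the only member with an unadjusted p under 0.05, at -0.11 ± 0.05 (unadjusted p = 0.0374, adjusted p = 0.916). The 95% interval of that contrast was -0.75 to 0.32 for PBRM1 and -0.95 to 0.66 for SMARCB1, so this comparison leaves a wide range for both.

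Levels of different genes were compared as CPM per kilobase of annotated exon. In shControl the order was BAP1 at 27.2, NF2 at 19.5, STAG2 at 16.6, SMARCA4 at 11.2, SETD2 at 8.07, ARID1A at 7.5, PBRM1 at 5.83 and SMARCB1 at 2.44 (means, n = 2). Neighbours in this order did not overlap between libraries, though the lowest SETD2 library (7.73) was near the highest ARID1A library (7.62). With shRNA1 and shRNA2, NF2 stood above BAP1, at 43.5 and 45.4 against 32.6 and 34.3, and SMARCA4 stood above STAG2, at 21.6 and 22.1 against 13.0 and 13.2. ARID1A stood above SETD2 on the means with both hairpins, but its lower shRNA1 library (8.32) was level with the higher SETD2 library (8.30). The lengths matter for the order: with the longest transcript in place of all annotated exons, SMARCA4 had 30.6 in shControl and came after BAP1 at 34.9. By that length SMARCA4 already stood above STAG2 (22.5) in shControl, and ARID1A (13.9) above SETD2 (9.97). NF2 still stood below BAP1 in shControl (23.2) and above it with shRNA1 (51.8 against 41.8) and shRNA2 (54.0 against 44.0).

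Promoter sequence is shown for the pair of genes with the largest rise and for STAG2, the gene that fell, a choice made from the changes above. ARID1A and BAP1, which rose less, are not shown, and BAP1 has no entry in the RefSeq promoters used here. Each run is the plus strand, 5′ to 3′, of the 250 bases before the most upstream RefSeq start of the gene (GRCh38.p14), and capitals mark motif matches on either strand: the GC box (GGGCGG), the CCAAT box (CCAAT) and the NRF1 element (GCGCA, any base, then GCGC). The windows are chr22:29603306-29603555 for NF2, chr19:10960780-10961029 for SMARCA4 and chrX:123960310-123960559 for STAG2. Most of the SMARCA4 window and all of the STAG2 window lie inside the gene spans of GENCODE 29. Its earliest transcripts of these genes start upstream of the RefSeq starts used here.
NF2: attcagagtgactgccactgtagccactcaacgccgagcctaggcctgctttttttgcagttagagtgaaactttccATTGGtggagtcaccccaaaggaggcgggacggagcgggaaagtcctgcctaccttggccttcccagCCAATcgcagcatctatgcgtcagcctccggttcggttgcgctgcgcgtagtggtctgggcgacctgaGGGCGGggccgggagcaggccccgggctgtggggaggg
SMARCA4: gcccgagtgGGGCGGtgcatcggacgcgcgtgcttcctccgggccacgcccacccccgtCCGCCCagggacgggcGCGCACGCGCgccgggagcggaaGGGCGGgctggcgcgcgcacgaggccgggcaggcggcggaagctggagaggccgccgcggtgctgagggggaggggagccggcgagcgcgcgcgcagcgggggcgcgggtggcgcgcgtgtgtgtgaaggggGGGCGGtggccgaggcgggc
STAG2: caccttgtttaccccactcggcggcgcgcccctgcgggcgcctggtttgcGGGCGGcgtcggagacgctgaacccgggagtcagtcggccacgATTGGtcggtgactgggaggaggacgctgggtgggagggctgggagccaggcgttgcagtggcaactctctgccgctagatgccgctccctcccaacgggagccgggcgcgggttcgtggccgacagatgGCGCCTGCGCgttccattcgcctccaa
The SMARCA4 window has a GC content of 82.4% and 44 CpG dinucleotides, more than in 99.2% of all 34788 RefSeq promoters of this length. The NF2 window has a GC content of 62.4% and 16 CpG, and the STAG2 window has 70% and 29 CpG.

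The GC box occurs 4 times in the SMARCA4 window and once each in those of NF2 and STAG2, and 42.6% of all promoters hold at least 1. The CCAAT box, the site of the factor NF-Y, occurs on both strands of the NF2 window and once in that of STAG2, and 32.0% of all promoters hold it. The NRF1 element, named for a factor of nuclear genes for mitochondrial proteins, occurs in the SMARCA4 and STAG2 windows and in 5.05% of all promoters. None of the 3 windows holds the ETS core CCGGAAG (8.5% of promoters), the E-box CACGTG (6.31%), the cAMP response element TGACGTCA (1.64%) or TATAAA (10.8%). These matches describe the windows only. Of the other members in the RefSeq table, ARID1A has 3 GC boxes and SETD2 has 1, PBRM1 and SMARCB1 each have a CCAAT box, and PBRM1 has the E-box.

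The partners of each gene were counted in lists that were chosen with earlier results of these data known. Beside them stand 28.6% of all tested genes called higher and 28.9% called lower for the mean of both hairpins. In each list the 3 genes with the smallest edgeR p in these same data are named, so their small p-values follow from that choice. Among 23 tested other subunits of SWI/SNF, 14 were higher, 3 lower and 6 not called, with a median log2 fold change of 0.32. Under total counts 10 were higher and 4 lower. In that setting, which is also given for the lists below, 3398 of all 16039 tested genes were higher and 6028 lower. SMARCE1, a subunit that contacts nucleosomal DNA through an HMG domain, had 133 CPM in shRNA1 and 122 CPM in shRNA2, against 76.8 CPM in shControl, a log2 fold change of 0.73 ± 0.04 (edgeR adjusted p = 1.1e-09). The scaffold SMARCC1 rose by 0.57 ± 0.04 (adjusted p = 2.9e-09) and SMARCD1 by 0.62 ± 0.06 (adjusted p = 1.5e-07). The 3 lower members, singled out after their values were seen, were PHF10 (-0.72 ± 0.07, adjusted p = 2.2e-07), DPF2 (-0.45 ± 0.06, adjusted p = 8.4e-06) and BICRAL (-0.77 ± 0.09, adjusted p = 3.1e-06). PHF10 belongs to PBAF, DPF2 to BAF and BICRAL to the non-canonical form.

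Among 22 other enzymes and readers of histone H3 lysine 36 methylation, the mark SETD2 writes, 6 were higher, 8 lower and 8 had no call, with a median of 0.05 (-0.11 with total counts, which gave 5 higher and 11 lower). SUPT6H, the elongation factor SPT6 that accompanies SETD2 on RNA polymerase, had 181 CPM in shRNA1 and 182 CPM in shRNA2, against 96.7 CPM in shControl, a log2 fold change of 0.91 ± 0.04 (edgeR adjusted p = 3.3e-11). MORF4L1, a chromodomain reader of the mark, rose by 0.78 ± 0.04 (adjusted p = 1.0e-10), and the DNA methyltransferase DNMT3B, which the mark recruits to gene bodies, fell by 0.91 ± 0.07 on the log2 scale (adjusted p = 2.1e-08). The writers of the dimethyl mark, named after their values were seen, differed in sign: NSD1 changed by 0.22 ± 0.04 (adjusted p = 0.000499), NSD2 by -0.44 ± 0.04 (adjusted p = 5.2e-08) and NSD3 by -0.60 ± 0.08 (adjusted p = 8.3e-06), and the NSD1 call was lost under total counts (adjusted p = 0.234).

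Among 19 BAP1 partners and histone H2A ubiquitin ligases 6 were higher, 8 lower and 5 not called, with a median of 0.12 that was -0.04 under total counts (2 higher, 8 lower). HCFC1, a transcription cofactor bound by BAP1, had 204 CPM in shRNA1 and 217 CPM in shRNA2, against 137 CPM in shControl, a log2 fold change of 0.62 ± 0.04 (edgeR adjusted p = 1.0e-09). OGT, the glycosyltransferase of the same complex, fell by 0.37 ± 0.04 on the log2 scale (adjusted p = 3.0e-07). PCGF5, a subunit of the Polycomb ligases that place the ubiquitin BAP1 removes, had 48.0 CPM in shRNA1 and 48.2 CPM in shRNA2, against 114 CPM in shControl, and fell by 1.24 ± 0.07 (adjusted p = 2.05e-09).

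Most transcripts in the list of the Hippo pathway around NF2 were lower. That list mixes kinases, genes that restrain them and effectors, and activity of the pathway was not tested. Of 27 tested genes 4 were higher, 16 lower and 7 not called, with a median of -0.26 (3 higher and 18 lower under total counts). Without the length and GC trend, 4 were higher and 14 lower, with a median of -0.20. AJUBA, a LIM protein that restrains the LATS kinases, had 340 CPM in shRNA1 and 338 CPM in shRNA2, against 709 CPM in shControl, a log2 fold change of -1.06 ± 0.03 (edgeR adjusted p = 5.6e-13). TEAD1, the DNA-binding partner of YAP, fell by 0.73 ± 0.04 (adjusted p = 5.5e-10), while WWTR1, which encodes TAZ, rose by 0.56 ± 0.03 (adjusted p = 9.1e-10). Named after their values were seen, YAP1 fell by 0.54 ± 0.04 (adjusted p = 2.9e-08) and the kinase LATS1 by 1.09 ± 0.08 (adjusted p = 7.1e-09). The transcripts of the paired coactivators moved in opposite directions.

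Of 21 tested YAP and TAZ target genes, a list that shares AJUBA, LATS2, PTPN14 and AMOTL2 with the one above, 4 were higher, 15 lower and 2 not called, with a median of -0.52 (2 higher and 17 lower under total counts). GADD45A, a growth arrest and DNA damage gene, had 18.4 CPM in shRNA1 and 15.6 CPM in shRNA2, against 135 CPM in shControl, a log2 fold change of -2.99 ± 0.07 (edgeR adjusted p = 2.2e-14). IGFBP3, a secreted binder of insulin-like growth factors, fell by 1.11 ± 0.03 (adjusted p = 3.2e-14). The widely used targets ANKRD1, CCN2 and CCN1, named after their values were seen, differed in direction. ANKRD1 had 5.22 CPM in shRNA1 and 4.75 CPM in shRNA2, against 18.0 CPM in shControl (-1.85 ± 0.13, adjusted p = 1.1e-08). CCN2 had 687 CPM in shRNA1 and 696 CPM in shRNA2, against 435 CPM in shControl (0.67 ± 0.03, adjusted p = 3.2e-11). CCN1 had 1427 CPM in shRNA1 and 1415 CPM in shRNA2, against 1345 CPM in shControl, which is 0.08 ± 0.02 here (adjusted p = 0.0101) and -0.08 under total counts (adjusted p = 0.0076). Its call was lost in the least favourable set of 5 libraries (adjusted p = 0.0942).

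Among 15 other cohesin subunits and regulators 5 were higher, 4 lower and 6 not called, with a median of -0.01 (3 higher and 9 lower under total counts). The median under total counts was -0.17, close to the -0.18 of all tested genes in that setting. Removal of the length and GC trend gave 5 higher and 2 lower, with a median of 0.02. RAD21, the kleisin that closes the ring and binds STAG proteins, had 312 CPM in shRNA1 and 315 CPM in shRNA2, against 400.4 CPM in shControl, a log2 fold change of -0.35 ± 0.03 (edgeR adjusted p = 4.7e-08). SMC1A rose by 0.50 ± 0.04 (adjusted p = 1.2e-07), as did HDAC8, the deacetylase of SMC3, by 0.79 ± 0.07 (adjusted p = 9.9e-08). Of the core ring, STAG2 and RAD21 were lower, SMC1A was higher and SMC3 was at 0.004 ± 0.05 (adjusted p = 0.954), or -0.15 under total counts (adjusted p = 0.0193).

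**Figure D3:**
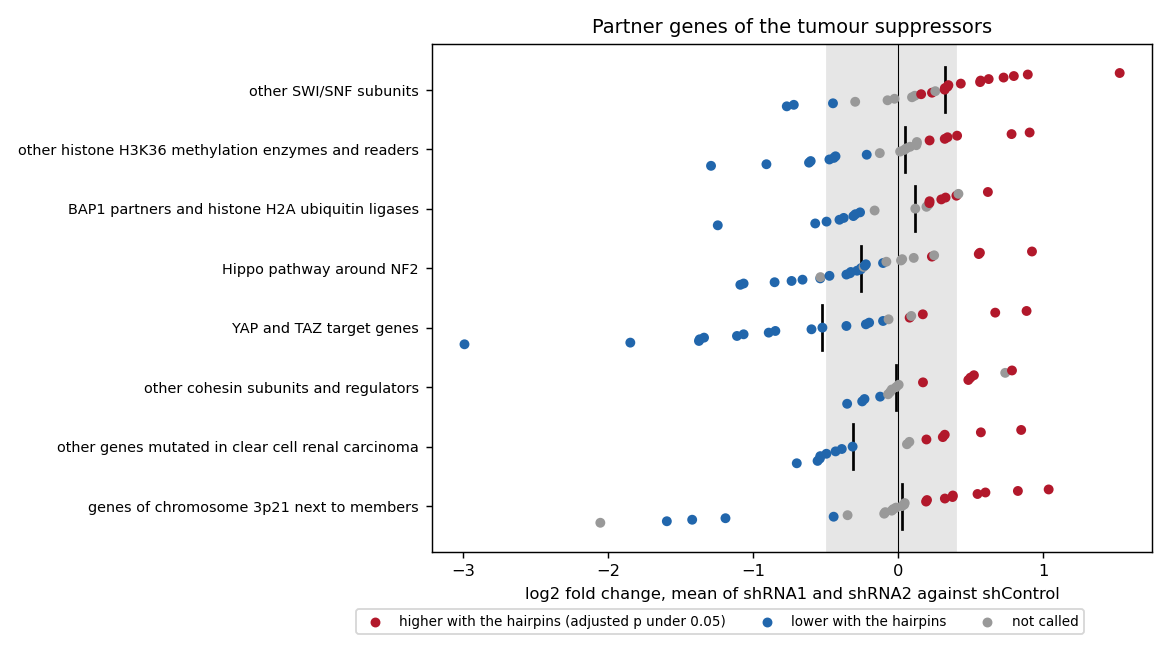
Log2 fold change of every tested partner gene for the mean of shRNA1 and shRNA2 against shControl (horizontal axis, TMM-scaled), by list. Red points were called higher, blue points lower and grey points were not called (edgeR adjusted p, 0.05); black bars are list medians, and the grey band holds the middle 50% of all tested genes. Other SWI/SNF subunits lie mainly to the right (14 of 23 higher) and YAP and TAZ target genes mainly to the left (15 of 21 lower).

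Of 15 other genes mutated in clear cell renal carcinoma that could be tested, 5 were higher, 8 lower and 2 not called, with a median of -0.31. Total counts gave 3 higher and 8 lower. Removal of the length and GC trend gave 5 higher and 7 lower, with a median of -0.11. VHL had 63.7 CPM in shRNA1 and 63.9 CPM in shRNA2, against 83.4 CPM in shControl, a log2 fold change of -0.39 ± 0.06 (edgeR adjusted p = 2.4e-05). MTOR, the kinase that kidney cancer drugs inhibit, rose by 0.85 ± 0.04 (adjusted p = 7.4e-11). The transcription factor TCF12 fell by 0.70 ± 0.04 (adjusted p = 2.1e-09) and the histone H3 lysine 4 demethylase KDM5C by 0.49 ± 0.04 (adjusted p = 2.7e-08). CDKN2A, which did not pass the filter, had 2 counts in shControl replicate 2 and none in the other libraries.

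Genes near PBRM1, BAP1 and SETD2 on chromosome 3, up to 249.7 kb from the nearest of them, did not share 1 direction. Of 23 tested, 9 were higher, 4 lower and 10 not called (median 0.03; 6 higher and 8 lower under total counts). NT5DC2, 10.3 kb from PBRM1, had 394 CPM in shRNA1 and 398 CPM in shRNA2, against 193 CPM in shControl, a log2 fold change of 1.04 ± 0.03 (edgeR adjusted p = 9.6e-13). The actin-binding gene TWF2, 161.8 kb from BAP1, rose by 0.83 ± 0.06 (adjusted p = 4.3e-09). ALAS1, which starts haem synthesis and lies 186.7 kb from BAP1, rose by 0.60 ± 0.05 (adjusted p = 6.1e-08). PHF7, whose start lies 0.307 kb from that of BAP1, had 2.49 CPM in shRNA1 and 2.90 CPM in shRNA2, against 6.13 CPM in shControl, and fell by 1.19 ± 0.20 (adjusted p = 9.8e-05). It was named after its value was seen, and it moved against BAP1.

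The genes most like each member were found as the smallest root mean square difference in centred log2 CPM over the 6 libraries, among 9497 tested genes of at least 10 CPM. For NF2 these were CALM3, a calmodulin gene (0.0143), and KIF1C, a kinesin (0.0200), and for SMARCA4 they were SMAD6 (0.0255) and MARCKSL1 (0.0287). BAP1 was nearest to XPO6 (0.0162) and TM9SF4 (0.0178), ARID1A to FAM160B2 (0.0246) and YIPF1 (0.0267), STAG2 to NAA80 (0.0218) and CDK13 (0.0237), and SETD2 to ACOT13 (0.0195) and SRRD (0.0221). PBRM1 and SMARCB1 had no such close match. Their nearest genes were IL10RB (0.0671) and DDI2 (0.0812) for PBRM1 and THADA (0.105) and PUS7L (0.11) for SMARCB1.

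**Figure D4:**
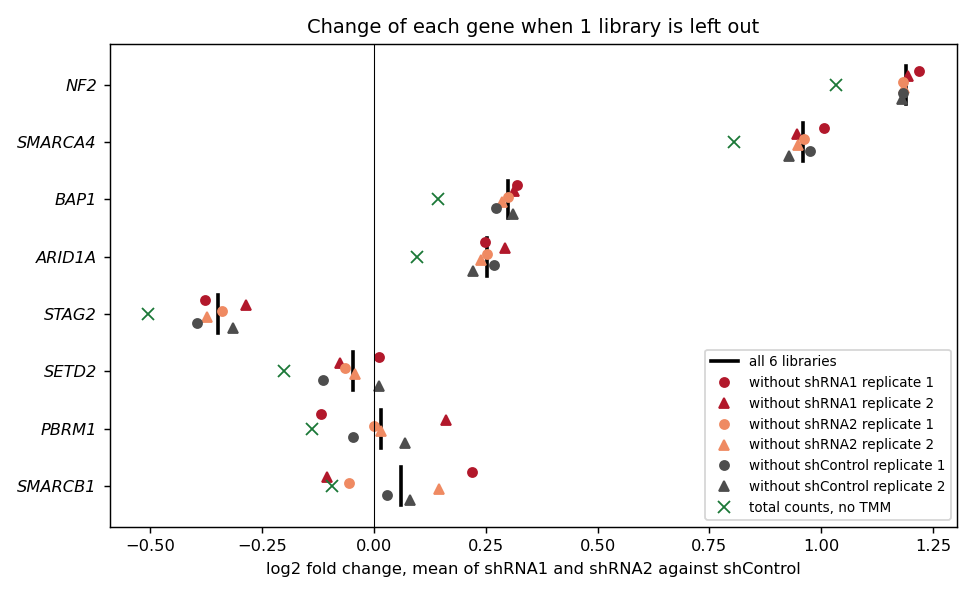
Log2 fold change of each gene for the mean of shRNA1 and shRNA2 against shControl (horizontal axis) with all 6 libraries (black bars), with each library left out in turn (points and triangles) and with total counts in place of TMM scaling (crosses). NF2, SMARCA4, BAP1, ARID1A and STAG2 keep their sign in all of these, while PBRM1 runs from -0.12 to 0.16 and SMARCB1 from -0.10 to 0.22 when 1 library is left out.

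With 1 library left out at a time, NF2, SMARCA4, BAP1, ARID1A and STAG2 stayed called for the mean of both hairpins, with a highest adjusted p of 0.0063 for ARID1A. The change of STAG2 then ran from -0.39 to -0.29, that of BAP1 from 0.27 to 0.32 and that of ARID1A from 0.22 to 0.29. SETD2 ran from -0.11 to 0.01 and was called in none of these sets. PBRM1 was the 1 gene of the 8 for which leaving out a library changed the call.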

How the data were processed

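The authors deposited whole-number counts per gene for 6 libraries. Per the labels' protocols, total RNA (TRIzol) went through an Abclonal library kit and paired-end Illumina sequencing. The submitters' processing notes name FastQC 0.11.9, Trim Galore 0.6.7, HISAT2 2.2.1, StringTie 2.2.1 and hg38. The counting tool, annotation release, strand setting and treatment of multiply mapped reads were not given in the sources used here. Counts were fitted with edgeR 4.0.16 in R 4.3.3 (limma 3.58.1): filterByExpr by group, TMM scaling, robust quasi-likelihood fit of 3 group means over all 6 libraries, and Benjamini-Hochberg adjustment over 16039 genes with a threshold of 0.05. CPM use TMM-scaled library sizes, errors are standard errors unless marked, and intervals cover 95%. Positions and lengths come from GENCODE 29, promoters from RefSeq. Alternatives were RLE factors, total counts, library sizes that leave out mitochondrial and ribosomal RNA, other filters, DESeq2 1.42.0, a test against a fold of 1.2, fewer groups in the fit, a replicate block, removal of a length and GC trend (mgcv 1.9.3) and leaving out each library. The code was tested on simulated data. Named genes were LINC02068, the 8 genes, VHL, paralogs, the 3 smallest p of each of 8 lists, and the nearest genes by pattern. The genes and lists were chosen with earlier results of these data known.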

Additional observations from a re-analysis of the deposited data

How the results depend on the processing

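Against shControl, NF2 and SMARCA4 stayed called under all settings tried, as did STAG2 for both hairpins averaged and BAP1 with shRNA2. BAP1 and ARID1A kept their sign under all settings against shControl. For both hairpins averaged and for shRNA1, BAP1 lost the call against a fold of 1.2, and ARID1A lost it there and under total counts. With shRNA2, ARID1A lost it against a fold of 1.2 only. Against a fold of 1.2, 3 of 8 genes passed for both hairpins averaged, 2 with shRNA1 and 3 with shRNA2 in place of 5, as that test asks for larger changes. The share of all tested genes called in that test, and with the replicate block below, is not reported here. Those counts therefore do not set the 8 genes apart from the background. Under total counts PBRM1 was at -0.139 (mean) and -0.036 (shRNA2) and SMARCB1 at -0.094 and -0.027. PBRM1 was at -0.0046 with no filter on low counts and -0.0048 with the stricter one, and the shRNA1 against shRNA2 difference of SETD2 was -0.0043 with no filter. With the length and GC trend removed, SETD2 was at 0.012 (mean), 0.022 (shRNA1) and 0.0024 (shRNA2), SMARCB1 at -0.015 (mean), and the difference between hairpins of SMARCA4 was 0.0015. None of these values passed the test and the cause of the sign changes was not tested.

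With 1 library left out, values for the mean ran from -0.12 to 0.16 (PBRM1), -0.11 to 0.01 (SETD2) and -0.10 to 0.22 (SMARCB1). With shRNA1 they ran from -0.37 to 0.19 (PBRM1), -0.114 to 0.059 (SETD2) and -0.36 to 0.29 (SMARCB1), and with shRNA2 from -0.12 to 0.0057 (SETD2) and -0.094 to 0.306 (SMARCB1). Between hairpins they ran from -0.513 to 0.047 (PBRM1, called without shRNA1 replicate 1), -0.079 to 0.094 (SETD2), -0.097 to 0.020 (SMARCA4), -0.51 to 0.14 (SMARCB1) and -0.114 to 0.070 (STAG2), with 0 to 1 of the 8 genes called. The lone library of a group is then assumed to vary like the others. All genes called between the hairpins were 5, against 69 with no filter, 9 with the replicate block, 16 with only the groups compared, 17 by DESeq2, and 12 to 31 with 1 library left out.

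Replicate numbers were not used to pair the samples, as the labels tie no number across groups. Whether they pair samples is not given in the sources used here. Deviations of same-numbered libraries correlated at -0.029 to 0.0107. With the replicate block 5 of the 8 genes were called in each contrast against shControl, as without it. The part of depth in these calls was not tested. PBRM1 and SMARCB1 have the widest intervals of the 8 genes. Removal of the length and GC trend gave 14 higher and 4 lower among the other SWI/SNF subunits. It gave 6 higher and 9 lower in the histone H3 lysine 36 list and 7 and 8 among the BAP1 partners. YAP and TAZ targets had 4 higher and 15 lower in that setting, and the chromosome 3 neighbours 8 and 4.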

Other observations

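The values below belong to other members of the partner lists and were picked after they were seen. Among SWI/SNF subunits, SMARCD3, best known from heart and muscle, averaged 43.2 CPM in shRNA1 and 40.0 CPM in shRNA2, against 22.4 CPM in shControl (log2 fold change 0.89 ± 0.09, edgeR adjusted p = 5.3e-07). SS18, the subunit fused to SSX in synovial sarcoma, averaged 66.5 CPM in shRNA1 and 61.8 CPM in shRNA2, against 43.4 CPM in shControl (0.57 ± 0.06, adjusted p = 1.7e-06). Near NF2 in the Hippo pathway, the kinase gene TAOK2 averaged 104 CPM in shRNA1 and 111 CPM in shRNA2, against 56.8 CPM in shControl (0.92 ± 0.06, adjusted p = 1.4e-09). FRMD6, another membrane-linked member of the pathway, averaged 49.99 CPM in shRNA1 and 52.3 CPM in shRNA2, against 92.2 CPM in shControl (-0.85 ± 0.05, adjusted p = 1.6e-09).

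Among YAP and TAZ targets, the receptor tyrosine kinase gene AXL averaged 517 CPM in shRNA1 and 528 CPM in shRNA2, against 939 CPM in shControl (-0.85 ± 0.03, adjusted p = 1.5e-12). Of the other genes mutated in kidney cancer, the histone H3 lysine 4 methyltransferase gene KMT2D averaged 90.1 CPM in shRNA1 and 95.1 CPM in shRNA2, against 62.4 CPM in shControl (0.57 ± 0.05, adjusted p = 1.2e-07).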
